A study of Mus musculus with 202 samples.

Results

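The 37 genes described here encode the antioxidant and glutathione defence of the cell, and were followed in single mouse oocytes of 3 generations. They were chosen by function, by their gene symbols, and all 37 had an entry among the 23995 gene symbols of the count table. Cells dispose of superoxide with superoxide dismutases, which make hydrogen peroxide, and of peroxide with catalase, glutathione peroxidases and peroxiredoxins. Peroxiredoxins are recharged by the thioredoxin system and glutathione peroxidases by glutathione, a tripeptide of glutamate, cysteine and glycine, while the transcription factor Nrf2 (gene Nfe2l2), held down by Keap1, switches many of these genes on. The oocyte stores glutathione and the messenger RNA of such enzymes while it grows, because it is nearly silent in transcription once it is ovulated and passes fertilisation on these stores.

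The libraries were Smart-seq2 libraries of polyadenylated RNA, each from 1 MII oocyte, an ovulated egg paused in its second meiotic division until sperm enters. All mice were C57Bl/6J, an inbred strain. The groups were named for what the female founder of the line (F0) received: a control diet with dihydrotestosterone, an androgen (CD+DHT), a high fat and high sugar diet with vehicle (HFHS+Veh) or with dihydrotestosterone (HFHS+DHT), or a control diet with vehicle (CD+Veh). By its title the series asks how androgen before birth bears on later generations' risk of polycystic ovary syndrome. Of 202 libraries, 157 held at least 100000 gene counts and 4000 genes and were used. In F1 these were 8 oocytes of CD+DHT, 14 of HFHS+Veh, 13 of HFHS+DHT and 10 of CD+Veh. In F2 they were 25 of CD+DHT, 20 of HFHS+Veh, 5 of HFHS+DHT and 16 of CD+Veh, and in F3 they were 13 of CD+DHT, 13 of HFHS+Veh and 20 of CD+Veh. A number before the point in the titles was taken as the mouse, which is an inference. Among the used oocytes it gave 5 CD+DHT, 4 HFHS+Veh and 4 CD+Veh animals in F2 and 2 animals in F3 HFHS+Veh. A further F3 HFHS+Veh animal, number 25, had no oocyte that passed both limits. The oocytes of F1, of F2 HFHS+DHT and of the other F3 groups could not be tied to a mouse.

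Gene counts per used library ran from 133654 to 16359078. In 36 of the 202 libraries another label contradicted the title on the hormone or the generation, and the titles were followed; the 5 F2 HFHS+DHT oocytes were among them, entered no comparison between lineages, and are counted where all 66 F2 oocytes are described together. All 12 oocyte markers, such as Zp3, Gdf9 and Bmp15, had counts in every group, and their summed level had group medians of 10499.5 to 20735.5 counts per 1000000 gene counts (CPM). The library labelled F3 CD+Veh oocyte 21 went against its label and held 165 CPM of oocyte markers and 62241 CPM of cumulus and granulosa markers, genes of the follicle cells around the oocyte. The F3 libraries stood apart as a set. Between 43.4% and 50.5% of all genes at 5 CPM or more differed by at least 2-fold between F3 and F2 of the same lineage, against 4.91% in CD+DHT, 4.96% in HFHS+Veh and 8.88% in CD+Veh between F2 and F1. Generation and the making of the libraries cannot be told apart in this design.

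Promoter sequence is shown for 3 members on whose levels the results turn. Prdx1 was the most abundant member, Gclm makes the regulatory subunit of the enzyme that limits glutathione synthesis, and Sod1 differed most between generations. The stretches come from the RefSeq promoter windows of build GRCm38.p6, lie before the start site on the plus strand, and are written 5′ to 3′ without bases of an annotated exon. Capitals mark the core of the antioxidant response element, the site known to be bound by Nrf2, searched as TGACNNNGC on either strand (GCNNNGTCA as read here).
Prdx1 (chr4:116685349-116685543): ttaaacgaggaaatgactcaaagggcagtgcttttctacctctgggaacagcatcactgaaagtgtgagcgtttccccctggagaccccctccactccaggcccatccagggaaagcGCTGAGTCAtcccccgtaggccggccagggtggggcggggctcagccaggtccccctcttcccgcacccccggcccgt
Gclm (chr3:122245307-122245556): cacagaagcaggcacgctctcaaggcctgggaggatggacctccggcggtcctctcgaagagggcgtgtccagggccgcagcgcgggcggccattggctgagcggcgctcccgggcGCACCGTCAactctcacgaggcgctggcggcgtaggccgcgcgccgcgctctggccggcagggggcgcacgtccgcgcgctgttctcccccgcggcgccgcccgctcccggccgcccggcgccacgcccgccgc
Sod1 (chr16:90220512-90220753): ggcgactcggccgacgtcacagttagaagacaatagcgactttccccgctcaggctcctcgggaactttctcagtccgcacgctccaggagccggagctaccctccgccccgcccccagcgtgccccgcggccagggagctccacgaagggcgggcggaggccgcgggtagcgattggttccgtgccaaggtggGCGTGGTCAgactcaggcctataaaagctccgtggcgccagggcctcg
The core began 133 bases before the start site in Prdx1, 134 in Gclm and 56 in Sod1. Of the 37 members, 33 had a window, and 6 of these (18.2%) held the core in the 250 bases before a start site, the others being Nfe2l2, Mgst1 and Txnrd1. Among all 27025 symbols with a window the share was 11.5%. Such a match is of letters only and says nothing of binding in these oocytes.

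MII oocytes held a few members in quantity and most of the rest at low level. Over the 157 oocytes, 12 members had a median of at least 20 CPM, 14 had a median above 0 and under 20 CPM, and 11 had a median of 0. Set on one scale per length, as RPKM, reads scaled to library size and gene length, Prdx1 led with a median of 388. Prdx2 followed with 145, then Glrx with 131 and Sod1 with 129. Thus 2 cytosolic peroxiredoxins, a cytosolic glutaredoxin, which frees proteins of bound glutathione, and the cytosolic copper and zinc superoxide dismutase stood at the head of the list. Prdx1 shares 10.9% and Prdx2 23.8% of their 50-base windows with other gene models, pseudogenes among them, so part of their reads may belong there.

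Among the dismutases, Sod2, the manganese enzyme of mitochondria, had a median of 12.7 RPKM. Catalase (Cat) was low, with a median of 0.207 RPKM and counts in 86 of 157 oocytes. Among the glutathione peroxidases, Gpx3, the secreted enzyme, reached 58.7 RPKM and the cytosolic Gpx1 14.35 RPKM. Gpx4, which reduces lipid peroxides in membranes, had counts in 40 oocytes and Gpx8 in 25, and both had a median of 0. The transcript of Gpx4 shares 61.7% of its windows of 50 bases with a pseudogene and another gene model, so its count is uncertain.

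The other peroxiredoxins were far below Prdx1 and Prdx2. Prdx5 had a median of 6.92 RPKM, the cytosolic Prdx6 3.39, and the mitochondrial Prdx3 0.221. Prdx4, of the endoplasmic reticulum, had counts in 43 of 157 oocytes and a median of 0. In the thioredoxin system, the cytosolic reductase Txnrd1 stood at 47.3 RPKM, the mitochondrial thioredoxin Txn2 at 27.9, the cytosolic thioredoxin Txn1 at 17.42 and the testis-rich reductase Txnrd3 at 4.88. The mitochondrial reductase Txnrd2 had counts in 21 oocytes, and Srxn1, which repairs overoxidised peroxiredoxins, in 9.

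For glutathione itself, the cystine importer Slc7a11 had a median of 37.5 RPKM. Gclm stood at 15.7 RPKM and Gclc, the catalytic subunit of glutamate-cysteine ligase, at 3.196 RPKM. Glutathione synthetase (Gss) had counts in 74 of 157 oocytes and a median of 0, and glutathione reductase (Gsr), which recycles the oxidised form, a median of 0.985 RPKM. Of the transferases, Gstp1 reached 16.3 RPKM, Gstz1 6.68 and the microsomal Mgst1 6.13, while Gsto1 and Gstm1 had medians of 0. Gstp1 shares 62.3% of its windows with Gstp2 and a pseudogene and stays uncertain. Nfe2l2 had a median of 19.06 RPKM and Keap1 of 0.263. Among the classical Nrf2 targets, the quinone reductase Nqo1 stood at 18.1 RPKM and haem oxygenase (Hmox1) had counts in 21 oocytes. Of the other glutaredoxins, the mitochondrial Glrx5 reached 6.07 RPKM, while Glrx2 and Glrx3 had medians of 0.

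**Figure D1:**
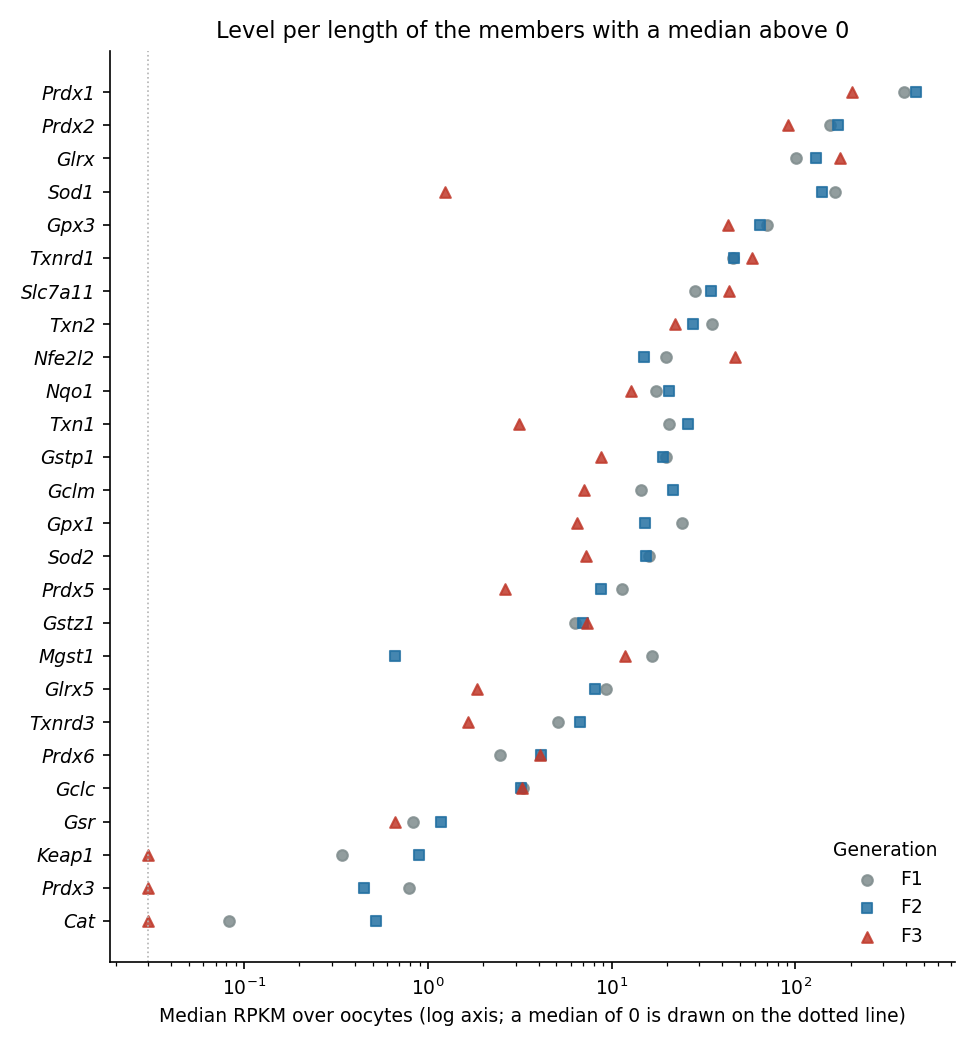
Median RPKM over the oocytes of F1 (circles), F2 (squares) and F3 (triangles) for the 26 members with a median above 0 over all oocytes, on a log axis; a median of 0 is drawn on the dotted line. Prdx1 is highest in each generation, and Sod1 lies at 164 RPKM in F1, 140.1 in F2 and 1.23 in F3.

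The plot of RPKM by generation shows the same leading members in F1 and F2. Txnrd1 had a median RPKM of 45.4 in F1, 46.0 in F2 and 57.9 in F3. Slc7a11 had 28.4 in F1, 34.9 in F2 and 43.5 in F3, and Glrx had 101 in F1, 129 in F2 and 174 in F3, so that each of these medians was highest in F3. Sod1 and Txn1 were set apart in F3.

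F2 was the generation with several animals per group, and there no member passed the test between lineages. For each animal the counts of its oocytes were added up, scaled by the trimmed mean of M values (TMM), and compared with edgeR's quasi-likelihood test over 11962 genes. The test took the animals as independent, while the titles do not tie them to the founders that were exposed. Of the 32 members tested, 0 passed an adjusted p of 0.05 in CD+DHT against CD+Veh, and 0 passed in HFHS+Veh against CD+Veh, with 0.0% of all genes called in both comparisons. At an unadjusted p under 0.05 the counts of members were also 0 and 0, against 220 genes (1.84%) and 118 genes (0.986%) over the whole table. DESeq2 likewise called 0 members in either comparison, and 2 and 1 genes of the table. The other 5 members were too low to be tested.

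Prdx1, a peroxidase and chaperone, had 764, 741, 739, 659.6 and 646 CPM in the 5 CD+DHT animals and 715, 636, 623 and 455 CPM in the 4 HFHS+Veh animals, against 726, 712, 603 and 449.9 CPM in the 4 CD+Veh animals. The 3 groups overlapped, with 1 low animal each in HFHS+Veh and CD+Veh. Its mean was 710.04 ± 53.4 CPM in CD+DHT (SD, n = 5), 607 ± 109 CPM in HFHS+Veh, against 623 ± 128 CPM in CD+Veh (SD, n = 4 each). The log2 fold against CD+Veh was 0.19 ± 0.19 (SE) for CD+DHT and -0.04 ± 0.19 for HFHS+Veh, within the spread between animals, and that for CD+DHT was -0.0053 with equal weight per oocyte and limma. Slc7a11 had 546, 346, 301, 277 and 271 CPM in the 5 CD+DHT animals and 436, 336, 315 and 255 CPM in the 4 HFHS+Veh animals, against 341, 323, 315 and 238 CPM in the 4 CD+Veh animals. A CD+DHT animal stood above all others, and the rest of the groups overlapped.

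Txnrd1, which recharges thioredoxin with electrons from NADPH, was among the steadiest members. It had 158, 156, 141, 139 and 133 CPM in the 5 CD+DHT animals and 169, 165, 155 and 145 CPM in the 4 HFHS+Veh animals, against 198, 177, 144 and 107 CPM in the 4 CD+Veh animals. The CD+DHT and HFHS+Veh animals lay inside the range of the CD+Veh animals. Gpx3 varied more, with 178, 170.1, 135, 84.5 and 32.8 CPM in the 5 CD+DHT animals and 159.5, 128, 107 and 39.96 CPM in the 4 HFHS+Veh animals, against 132, 98.7, 85.1 and 80.1 CPM in the 4 CD+Veh animals. A CD+DHT animal and an HFHS+Veh animal lay well under the others, and the log2 fold of 0.28 ± 0.42 (SE) for CD+DHT had a 95% interval of -0.60 to 1.17. The fold had the opposite sign, -0.49, with equal weight per oocyte and limma.

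Sod1 had 172, 84.7, 80.9, 78.2 and 75.4 CPM in the 5 CD+DHT animals and 110.1, 102, 102 and 73.3 CPM in the 4 HFHS+Veh animals, against 132, 119, 104 and 75.7 CPM in the 4 CD+Veh animals. The highest animal was a CD+DHT animal, and the other CD+DHT animals sat at the low end of the HFHS+Veh and CD+Veh values. Nqo1, a direct Nrf2 target, had 40.3, 28.8, 25.39, 25.32 and 22.13 CPM in the 5 CD+DHT animals and 35.1, 29.1, 24.3 and 23.3 CPM in the 4 HFHS+Veh animals, against 44.3, 39.2, 33.3 and 23.7 CPM in the 4 CD+Veh animals. Its log2 fold was -0.30 ± 0.24 (SE) for CD+DHT and -0.33 ± 0.26 for HFHS+Veh, the lowest of the 12 abundant members in both comparisons, with unadjusted p-values of 0.228 and 0.219 in edgeR's test. All 12 abundant members had folds of -0.30 to 0.28 in CD+DHT and of -0.33 to 0.21 in HFHS+Veh. For 10 of the 12 the 95% interval lay within a 2-fold change in either direction, in each comparison. Gpx3 and Glrx were the ones whose intervals reached past it.

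The smallest unadjusted p of any member belonged to Prdx5 in CD+DHT, a peroxiredoxin of mitochondria and peroxisomes. It had 10.6, 10.06, 9.19, 6.71 and 6.31 CPM in the 5 CD+DHT animals and 8.35, 8.09, 6.504 and 4.81 CPM in the 4 HFHS+Veh animals, against 7.001, 6.60, 4.66 and 4.13 CPM in the 4 CD+Veh animals. All 5 CD+DHT animals lay above 2 of the 4 CD+Veh animals, and the groups overlapped. The log2 fold was 0.61 ± 0.34 (SE), with an unadjusted p of 0.0925 and an adjusted p of 0.9999 in edgeR's test. The fold was -0.32 in an alternative that changed both weight and scale, with equal weight per oocyte on the log2(CPM + 1) scale and limma. Prdx5 shares 29.7% of its windows with the neighbouring Trmt112, so its reads are not all its own. In HFHS+Veh the smallest was that of Prdx3, with a log2 fold of 1.24 ± 0.81 (SE) and an unadjusted p of 0.145 in edgeR's test. Prdx3 had 7.67, 3.31, 2.33, 1.94 and 0.325 CPM in the 5 CD+DHT animals and 4.65, 4.39, 2.27 and 1.89 CPM in the 4 HFHS+Veh animals, against 2.39, 1.72, 1.18 and 0.331 CPM in the 4 CD+Veh animals, so that this fold rested on levels of a few CPM.

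**Figure D2:**
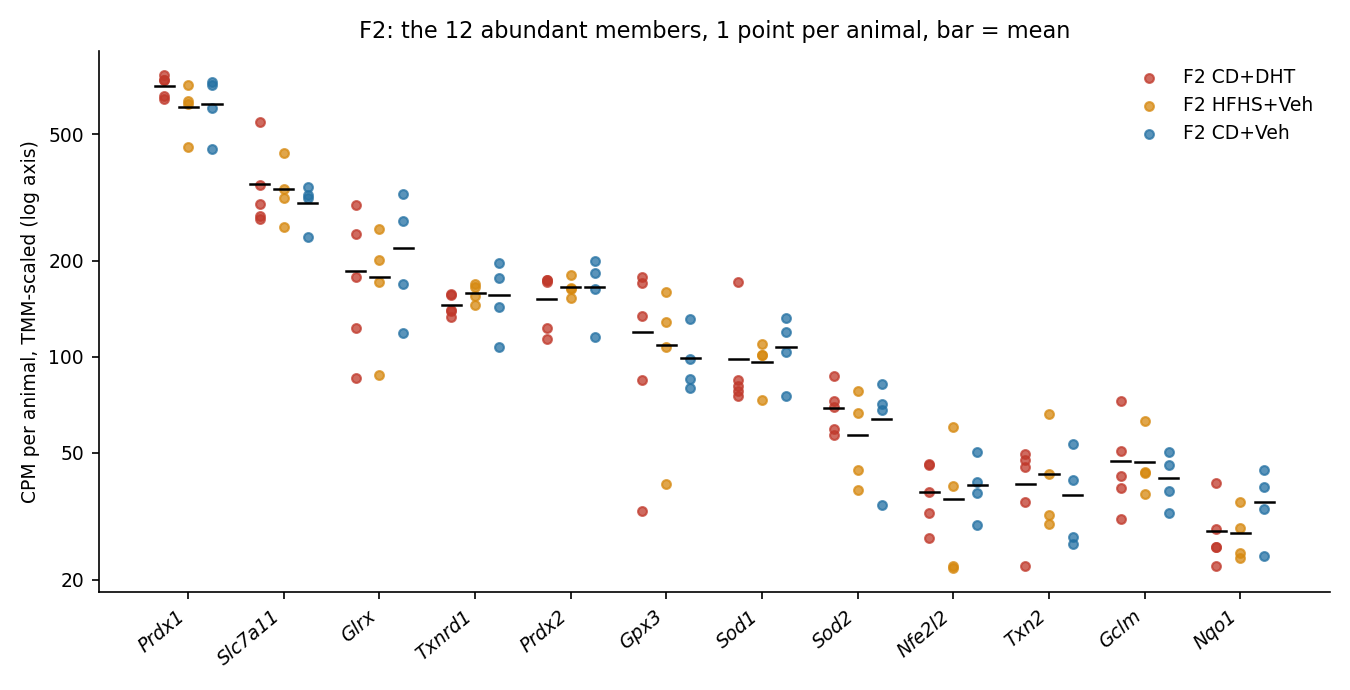
TMM-scaled CPM of the 12 members with a median of at least 20 CPM, 1 point per F2 animal on a log axis, for CD+DHT (red), HFHS+Veh (orange) and CD+Veh (blue), with bars at the group means. The 3 groups overlap for each of the 12 members.

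As the plot of F2 animals shows, 0 members had values of 1 lineage wholly above or below CD+Veh, where 1.14% of all genes did so in CD+DHT and 1.68% in HFHS+Veh. Over the 32 members the median log2 fold was 0.08 in CD+DHT and 0.03 in HFHS+Veh, and over all genes tested it was -0.01 and 0.02. Related genes were followed by list. Of the NADPH-supplying enzymes 9 were tested, of other glutathione transferases 10, of the gamma-glutamyl cycle 7, of other peroxidases and thioredoxin-fold genes 15, of Nrf2 partners 8, of other Nrf2 targets 8 and of methionine sulfoxide repair and selenoprotein synthesis 9. In both comparisons edgeR called 0 genes of each list. At an unadjusted p under 0.05 stood G6pdx, which starts the pentose phosphate pathway, and Txnl1 in CD+DHT, and the glutathione conjugate exporter Abcc1 in HFHS+Veh. Of 12 oocyte markers, 24 cumulus markers and 1 blood marker tested, 0 were called as well, and Oosp1 in CD+DHT and Ooep in HFHS+Veh, both oocyte markers, had an unadjusted p under 0.05.

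The spread between animals itself differed between members. Of the 12 abundant members 10 had a smaller within-group SD of log2 CPM over the 13 animals than the median gene (0.66), and the lowest were Txnrd1 (0.23) and Prdx1 (0.24). Among 4517 genes of at least 20 CPM the median SD was 0.36, and the 12 members had a median of 0.38. Mgst1, a transferase of the endoplasmic reticulum, was at the other end with an SD of 3.23. It had 62.2, 23.2, 12.1, 10.8 and 0.162 CPM in the 5 CD+DHT animals and 88.0, 4.84, 4.12 and 0.973 CPM in the 4 HFHS+Veh animals, against 35.0, 32.7, 5.42 and 0 CPM in the 4 CD+Veh animals. Each lineage held both animals with much and animals with little or none, and the groups overlapped.

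Mgst1 went with the markers of cumulus and granulosa cells. Over 157 oocytes its CPM had a Spearman rho of 0.83 with the summed CPM of 34 such markers, and of 0.90 within F1, 0.79 within F2 and 0.82 within F3. Oocytes of 1 animal share their handling, so this is a description. It was the highest rho of any member in each generation. Over all oocytes Prdx4 had 0.45, Gpx8 0.38 and Gsr 0.35, while Prdx4 had 0.65 within F2 and Gsr 0.64 within F1. Prdx1 had -0.34 and Nfe2l2 0.25 over all oocytes, but within F1, F2 and F3 Prdx1 had 0.08, 0.15 and -0.05 and Nfe2l2 had -0.15, 0.12 and 0.06. The summed markers ran from 14.6 to 62241 CPM per oocyte with a median of 398 CPM, and 22 of the 34 had a median of 0. Cyp19a1, the aromatase of granulosa cells, stood at 80.7 to 144.7 CPM in every group. Of other defining granulosa genes, Amh and Foxl2 were at 0 or under 1 CPM in all groups, while Tnfaip6, made by expanding cumulus cells, reached 48.3 CPM in F1 HFHS+Veh. RNA of attached cells and RNA of the oocyte cannot be told apart in such a library.

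**Figure D3:**
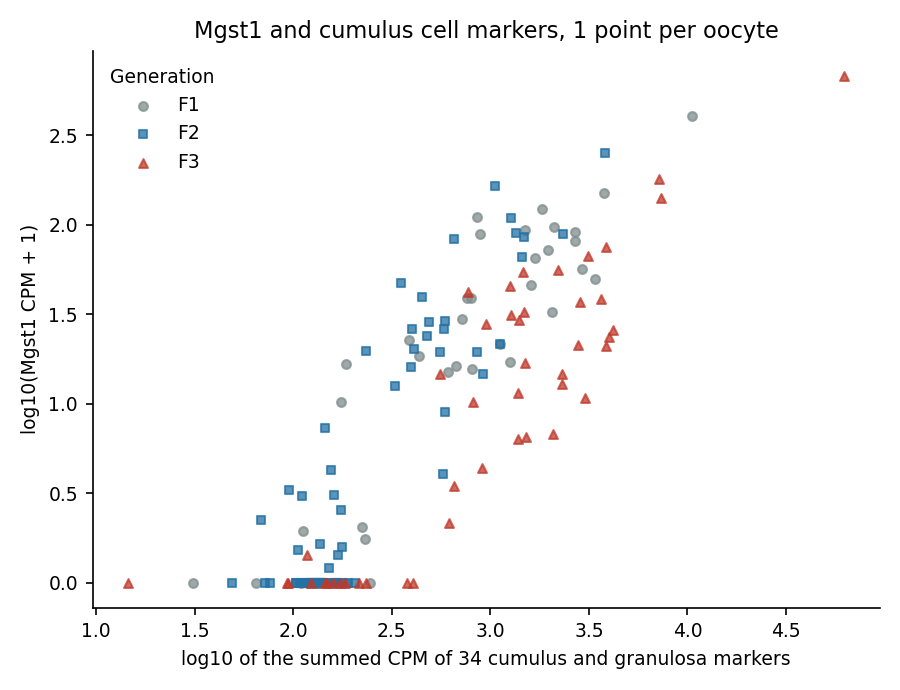
log10(Mgst1 CPM + 1) against log10 of the summed CPM of 34 cumulus and granulosa markers, 1 point per oocyte, with circles for F1, squares for F2 and triangles for F3. Mgst1 is at 0 in most oocytes with the lowest marker sums, and the oocyte with the highest marker sum, 62241 CPM, has the highest Mgst1, 675 CPM.

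In F1 no animal could be named, so each group was 1 pooled sample without a test, and a gene was called past the fold at a 2-fold difference with at least 5 CPM in either group. Intervals are exact 95% Poisson intervals; they cover counting error only, since reads without molecular identifiers are not independent molecules. In CD+DHT against CD+Veh 1 of 21 members was past the fold, against 5.9% of all genes. This was Txn2, the mitochondrial thioredoxin, at 30.8 CPM (27.0 to 34.9) in CD+DHT and 63.8 CPM (60.5 to 67.2) in CD+Veh. Its lowest, median and highest oocytes had 13.13, 47.2 and 86.2 CPM in CD+DHT and 21.2, 47.6 and 561 CPM in CD+Veh. The medians were alike and the groups overlapped, and the log2 fold of -1.05 became -0.56 without CD+DHT oocyte 6.

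All 14 F1 HFHS+Veh oocytes had a hormone label that contradicted the title, so every F1 comparison with this group rests on the titles. In F1 HFHS+Veh against CD+Veh 2 of 23 members were past the fold, against 5.46% of all genes. Mgst1 had 78.8 CPM (76.1 to 81.5) in the HFHS+Veh oocytes, against 7.79 CPM (6.67 to 9.04) in the CD+Veh oocytes, a log2 fold of 3.34. Gsr, named after its values were seen, had 9.64 CPM (8.74 to 10.6) and 2.26 CPM (1.68 to 2.99) in the same order, a log2 fold of 2.09. Without HFHS+Veh oocyte 1 the folds were 2.59 for Mgst1 and 1.44 for Gsr. Cumulus markers moved with them: their pooled sum was 1832 CPM in the HFHS+Veh oocytes, against 243 CPM in the CD+Veh oocytes, 14 of the 18 at 5 CPM or more were past the fold, and 2 of the 34 were at 0 in HFHS+Veh and 6 in CD+Veh. Their part in the result was not tested. Of other Nrf2 targets, the ferritin chains Ftl1 and Fth1 had 63.1 and 80.8 CPM in HFHS+Veh, against 19.02 and 29.6 CPM in CD+Veh.

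In F1 HFHS+DHT against HFHS+Veh 2 of 23 members were past the fold, against 5.46% of all genes. Mgst1 had 36.8 CPM (33.99 to 39.7) in HFHS+DHT and 78.8 CPM in HFHS+Veh, and Gsr had 3.43 and 9.64 CPM. The log2 folds of -1.10 and -1.49 were -0.35 and -0.84 without HFHS+Veh oocyte 1, whose cumulus marker sum was 10566 CPM. The pooled cumulus sum was 907 CPM in HFHS+DHT and 1832 CPM in HFHS+Veh. Both comparisons share the HFHS+Veh oocytes.

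In F1 HFHS+DHT against CD+DHT 2 of 22 members were past the fold, against 6.75% of all genes. Prdx5 had 10.96 CPM (9.47 to 12.6) in HFHS+DHT and 4.68 CPM (3.297 to 6.46) in CD+DHT, a log2 fold of 1.23 that was 0.62 with equal weight per oocyte. Mgst1 had 36.8 CPM (33.99 to 39.7) and 12.2 CPM (9.84 to 14.8) in the same order, and its fold of 1.60 was 0.63 without HFHS+DHT oocyte 12. The pooled cumulus sums were 907 and 484 CPM, and their part was not tested.

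In F3 too each group was treated as 1 pooled sample. In F3 CD+DHT against CD+Veh 3 of 21 members were past the fold, against 18.9% of all genes. Gclc, the catalytic subunit of glutathione synthesis, had 5.62 CPM (4.97 to 6.33) in CD+DHT and 26.69 CPM (25.39 to 28.0) in CD+Veh, a log2 fold of -2.25. Its lowest, median and highest oocytes had 0, 9.73 and 38.1 CPM in CD+DHT and 2.15, 23.3 and 111 CPM in CD+Veh. The groups overlapped, and the fold stayed at -1.76 or lower when any 1 oocyte was left out and was -1.33 with equal weight per oocyte. Its partner Gclm had 14.18 CPM in CD+DHT and 24.1 CPM in CD+Veh, a log2 fold of -0.76 that was not past the limit.

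Gstz1, a transferase that also acts in tyrosine breakdown, had 6.33 CPM (5.64 to 7.08) in CD+DHT and 29.3 CPM (28.0 to 30.7) in CD+Veh. Its lowest, median and highest oocytes had 0, 7.51 and 241 CPM and 0, 23.4 and 203 CPM in the same order. A CD+DHT oocyte held the highest value of both groups, and the log2 fold of -2.21 was -0.11 with equal weight per oocyte. Gpx1 went the other way, with 23.5 CPM (22.16 to 24.9) in CD+DHT and 7.12 CPM (6.46 to 7.83) in CD+Veh. This log2 fold of 1.72 fell to 0.44 without CD+DHT oocyte 14, a library that held 34.2% of the counts of its group, and was -0.08 with equal weight. Without the 3 CD+Veh oocytes richest in cumulus markers the folds were -2.23 for Gclc, -2.27 for Gstz1 and 2.12 for Gpx1. Cumulus markers summed to 1006 CPM in CD+DHT and 2044 CPM in CD+Veh. Blood and macrophage markers summed to 50.5 CPM in CD+DHT and 9.89 CPM in CD+Veh, with single oocytes at 0 to 128 CPM in CD+DHT and 0 to 179.6 CPM in CD+Veh. Of the 7 with an entry, 2 reached 5 CPM, Cd68 and Lyz2, and both were higher past the fold, Lyz2 with 27.1 CPM in CD+DHT and 8.55 CPM in CD+Veh. The defining red cell gene Hba-a1 and the leukocyte gene Ptprc were at 0 in both groups. The part of either list was not tested.

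In F3 HFHS+Veh against CD+Veh 1 of 21 members was past the fold, against 19.6% of all genes. It was Gstz1 again, with 13.05 CPM (10.6 to 15.9) in HFHS+Veh and the same CD+Veh oocytes as above, a log2 fold of -1.17. That fold was -0.94 without oocyte 7 of HFHS+Veh animal 22 and -0.85 with equal weight. Gclc had 22.06 CPM in the HFHS+Veh oocytes, against 26.69 CPM in the CD+Veh oocytes. The pooled cumulus sum was 2010 CPM in the HFHS+Veh oocytes, against 2044 CPM in the CD+Veh oocytes.

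Between F3 and F2 the members differed far more, as did all genes, in all 3 lineages that reached F3. This comparison was chosen after the values were seen, and it has no test. Of 25 members, 12 were past the fold in F3 CD+DHT against F2 CD+DHT, against 43.4% of all genes, and 14 of 25 in HFHS+Veh, against 50.5%. In CD+Veh it was 14 of 24, against 45.8%. The median log2 fold was -0.59, -0.73 and -0.38 over the members, against 0.01, -0.27 and -0.21 over all genes. Rescaling by TMM would add 0.14, 0.25 and 0.36 to each of these folds. Of the 24 members measured in each lineage, 7 were lower past the fold in every one, against 19.6% of all genes, and 2 were higher, against 6.97%.

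Sod1 was close to 0 in the F3 libraries. It had 1.04 CPM (0.775 to 1.38) in F3 CD+DHT against 85.9 CPM (84.0 to 87.7) in F2 CD+DHT, from 50 counts in F3. F3 HFHS+Veh had 1.04 CPM (0.451 to 2.06) from 8 counts, against 101 CPM (99.0 to 103) in F2. F3 CD+Veh had 1.13 CPM (0.874 to 1.43) from 67 counts, against 110.1 CPM (108 to 113) in F2. Among single oocytes the highest of 46 in F3 had 9.73 CPM and the lowest of 66 in F2 had 36.2 CPM, and in F1 the lowest of 45 had 40.5 CPM. F3 thus did not overlap with F1 or F2. The share of all genes without such overlap was not computed. The log2 folds of -6.36, -6.60 and -6.61 were among the 8 lowest of 7884, the 8 lowest of 7820 and the 4 lowest of 8116 genes.

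The Sod1 level went with the generation in the title and not with the contradictory label. The 8 oocytes titled F2 HFHS+Veh but labelled F3 had 77.5 to 208 CPM, and the 5 titled F3 HFHS+Veh but labelled F2 had 0 to 1.95 CPM. Without contradiction, 8 F3 HFHS+Veh oocytes had 0 to 6.22 CPM and 12 F2 HFHS+Veh oocytes had 69.6 to 149 CPM. Sod1 lies on chromosome 16 from 90220754 to 90226329 on the plus strand (GENCODE, GRCm38) and has a short messenger of 646 bases by the length that the deposited RPKM imply. It shares 23.1% of its windows with Gm8566, so how reads were placed bears on its count. Whether the RNA or its capture and placement differed cannot be told apart here.

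Txn1, the cytosolic thioredoxin, had 3.2996 CPM (2.81 to 3.86) in F3 CD+DHT and 27.7 CPM (26.69 to 28.8) in F2 CD+DHT. It had 3.65 and 27.0 CPM in F3 and F2 of HFHS+Veh, and 3.13 and 33.6 CPM in F3 and F2 of CD+Veh. The log2 folds were -3.07, -2.89 and -3.42, and the oocytes did not overlap in CD+Veh. Prdx1 had 259.9 CPM in F3 CD+DHT against 708 in F2, 277 against 611 in HFHS+Veh, and 237 against 637 in CD+Veh. Its folds of -1.45, -1.14 and -1.42 were -0.75, -0.97 and -1.37 with equal weight per oocyte, and that of HFHS+Veh was -0.89 with TMM scaling. Its oocytes did not overlap in CD+Veh either. The share of all genes without overlap of oocytes was not computed, and F3 CD+Veh oocytes could not be tied to a mouse. Sod2, Prdx5, Gstp1 and Glrx5 were the other members lower in each lineage, with log2 folds of -2.16 to -1.16. Sod2 had 32.5, 22.32 and 22.68 CPM in F3 of CD+DHT, HFHS+Veh and CD+Veh, against 72.9, 60.7 and 60.9 CPM in F2. Gstp1 had 5.22 to 5.64 CPM in the F3 groups, against 14.8 to 16.2 CPM in the F2 groups, and Glrx5 had 2.55 to 2.74 CPM against 7.32 to 10.21 CPM. Several of these folds did not reach the limit with equal weight per oocyte, namely Sod2 in CD+DHT (-0.61), Prdx5 in CD+DHT (-0.51) and CD+Veh (-0.42) and Gstp1 in CD+DHT (-0.97). Without oocytes rich in cumulus markers the pooled CD+Veh fold of Prdx5 was -1.65, against -1.46 with all oocytes. The CD+DHT fold of Sod2 was -0.996 without F3 oocyte 15, and with medians it was -0.65, and -0.93 in HFHS+Veh. The 7 members include the most abundant peroxiredoxin, the cytosolic thioredoxin and both superoxide dismutases.

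Other members at 10 CPM or more were past the fold in 1 or 2 lineages. Txnrd3 had 6.79 CPM in F3 HFHS+Veh and 21.98 CPM in F2 HFHS+Veh, and 9.05 CPM in F3 CD+Veh and 27.1 CPM in F2 CD+Veh, log2 folds of -1.70 and -1.58. Gclm had 14.18 CPM in F3 CD+DHT against 42.7 CPM in F2, and 18.1 against 44.4 CPM in HFHS+Veh. Its partner Gclc had 5.62 CPM in F3 CD+DHT against 13.6 CPM in F2, and this log2 fold of -1.28 was -0.78 without F3 oocyte 14 and -0.12 with equal weight per oocyte. Both subunits of the ligase were thus lower past the fold in CD+DHT as pooled.

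Among the glutathione peroxidases, Gpx1 had 9.397 CPM in F3 HFHS+Veh against 19.21 CPM in F2, and 7.12 against 17.6 CPM in CD+Veh. Its log2 fold of -1.03 in HFHS+Veh was -0.85 without oocyte 3 of F2 animal 5, and that of -1.30 in CD+Veh was -0.37 with equal weight per oocyte. Without oocytes rich in cumulus markers the pooled CD+Veh fold of Gpx1 was -1.70. Gpx3 had 49.9 CPM in F3 HFHS+Veh against 116 CPM in F2, a log2 fold of -1.22 that was -0.97 with TMM scaling. Prdx2 was at the limit in CD+Veh, with 83.7 CPM in F3 and 169 CPM in F2, and its log2 fold of -1.01 was -0.96 without F3 oocyte 23. Gstz1 was higher in F3 CD+Veh, with 29.3 CPM against 10.9 CPM in F2 CD+Veh, a log2 fold of 1.42 that was 0.91 with medians.

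Nfe2l2, which encodes Nrf2, was higher in F3. It had 121 CPM in F3 CD+DHT and 38.2 CPM in F2 CD+DHT, 151 and 35.2 CPM in HFHS+Veh, and 92.8 and 41.3 CPM in CD+Veh. The log2 folds were 1.67, 2.11 and 1.17, and single oocytes overlapped. Counted from the highest fold, Nfe2l2 ranked 653 of 7884, 300 of 7820 and 1055 of 8116 genes. Known Nrf2 targets lay in both directions. Nqo1 had folds of -0.54, -0.73 and -0.46, and Gclm of -1.59, -1.29 and -0.96. Gsr had 0.99, 0.90 and 1.06, of which the last was 0.51 without F3 oocyte 23 and the HFHS+Veh value -0.43 without oocyte 8 of F3 animal 26. Outside the 37, Me1 had 1.07 in CD+DHT and 1.01 in HFHS+Veh, and Ftl1 had 1.68 in CD+DHT. Lower were Fth1, with -1.31 in HFHS+Veh and -1.11 in CD+Veh, and Taldo1, like Me1 of the NADPH list, with -1.11 in CD+DHT and -1.28 in HFHS+Veh. Cat was the other member higher past the fold in each lineage, at 6.85, 5.61 and 9.15 CPM in F3 of CD+DHT, HFHS+Veh and CD+Veh, against 1.75, 2.57 and 2.69 CPM in F2. It had counts in 19 of 46 F3 oocytes and 43 of 66 F2 oocytes, and each fold fell short of the limit when 1 oocyte was left out. The log2 fold of 1.97 in CD+DHT was 0.74 without F3 oocyte 13, that of 1.12 in HFHS+Veh was 0.55 without oocyte 6 of F3 animal 26, and that of 1.77 in CD+Veh was 0.84 without F3 oocyte 23. With equal weight per oocyte the folds were 0.56 in CD+DHT and 1.98 in HFHS+Veh. The oocyte medians were lower in F3 in these lineages, at 0 CPM in both, against 1.15 CPM in F2 CD+DHT and 1.58 CPM in F2 HFHS+Veh. In CD+Veh the median was 1.66 CPM in F3 and 1.15 CPM in F2, a log2 fold of 0.53. Slc7a11, Txnrd1 and Glrx were not past the fold, with values of -0.01 to 0.36 over the 3 lineages.

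**Figure D4:**
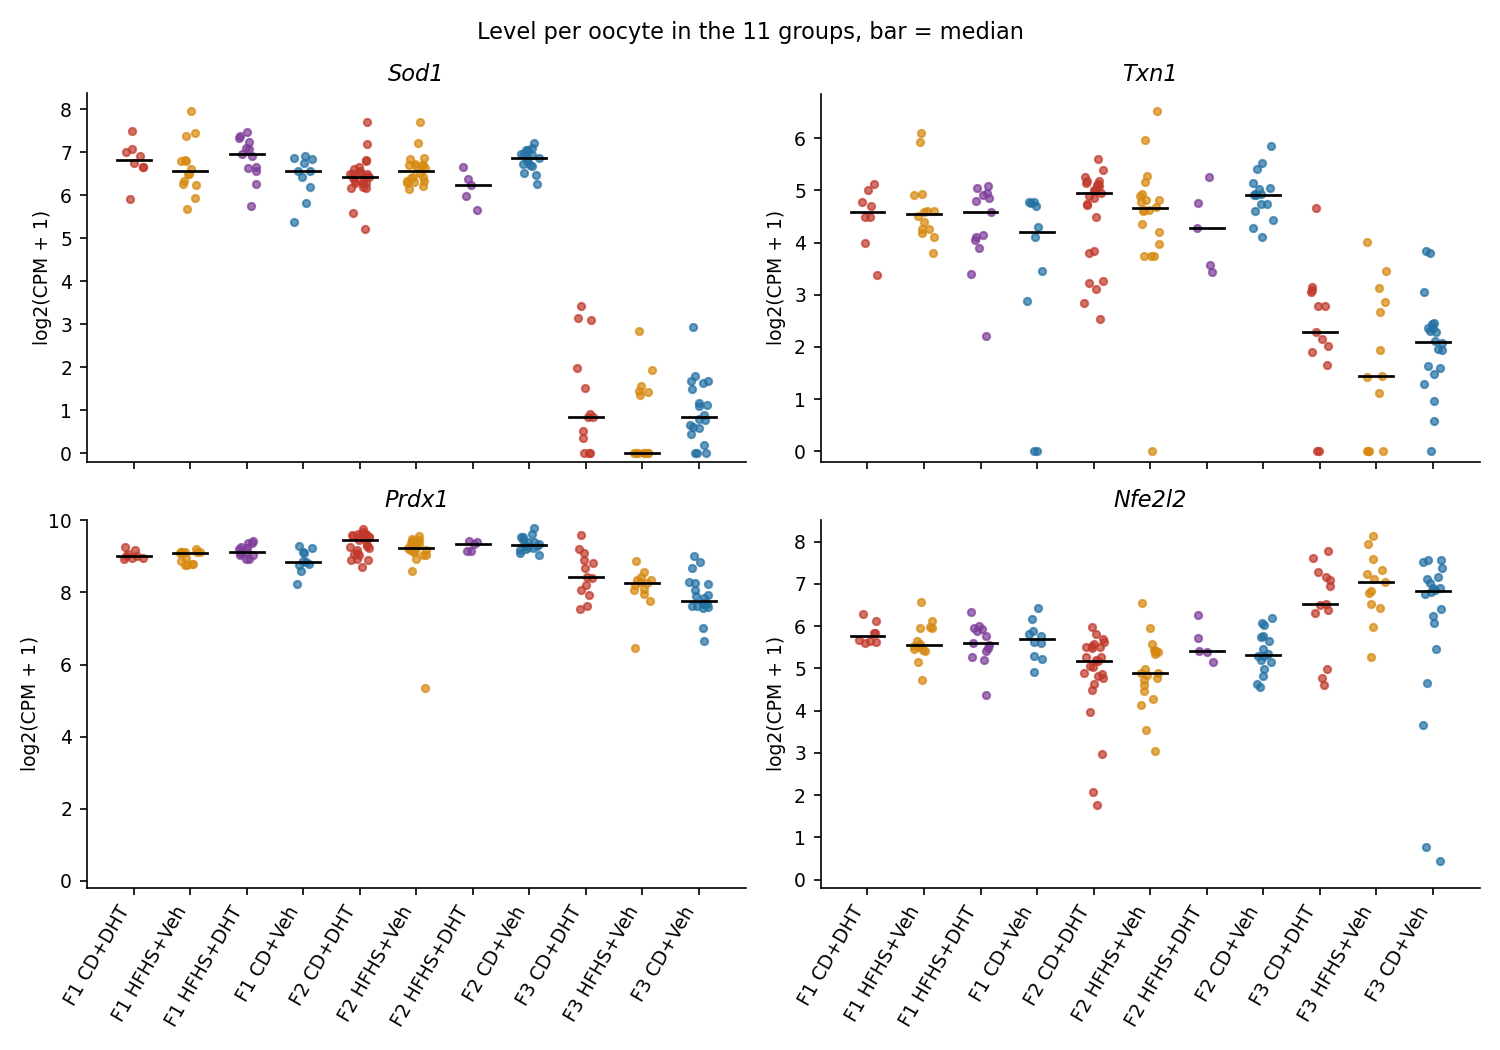
log2(CPM + 1) of Sod1, Txn1, Prdx1 and Nfe2l2 in each of the 157 oocytes by group, F1 to F3 from left to right and CD+Veh last within a generation, with bars at the medians. The 46 F3 oocytes lie under all F1 and F2 oocytes for Sod1, and most F3 oocytes lie under the F2 medians for Txn1 and Prdx1 and above them for Nfe2l2.

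Short genes as a set were lower in F3. Over all genes the median log2 fold of genes under 1000 bases was -2.03 in CD+DHT, -2.21 in HFHS+Veh and -2.31 in CD+Veh, and that of genes of 3000 bases or more was 0.20, -0.08 and -0.04. Over the members, length and fold had a Spearman rho of 0.48, 0.50 and 0.54 (25, 25 and 24 genes). Over all genes it was only 0.23, 0.18 and 0.21 in the same order, and between F2 and F1 it was -0.05, 0.22 and 0.18. Between F2 and F1 the short genes had medians of 0.14, 0.07 and 0.26. Sod2 was lower in F3 with a length of 3810 bases. F3 oocytes also had fewer genes, with group medians of 7127 to 8225 against 9182 to 10520.5 in the 3 F2 groups. The pooled sums of cumulus markers were higher, at 1006 to 2044 CPM against 408 to 443 CPM. Of these markers at 5 CPM or more, 8 of 15 were higher past the fold in CD+DHT and 3 were lower. In HFHS+Veh 9 of 19 were higher and 2 lower, and in CD+Veh 10 of 20 were higher and 0 lower. Of the 12 oocyte markers, 4 were lower past the fold in CD+DHT, 5 in HFHS+Veh and 5 in CD+Veh, and 1, 2 and 1 were higher. Their pooled sums were 10827 to 13798 CPM in F3, against 17432 to 18974 CPM in F2. Blood and macrophage markers summed to 50.5 CPM in F3 CD+DHT, against 2.90 CPM in F2 CD+DHT. The part of length, depth, oocyte markers and RNA of other cells in the result was not tested.

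**Figure D5:**
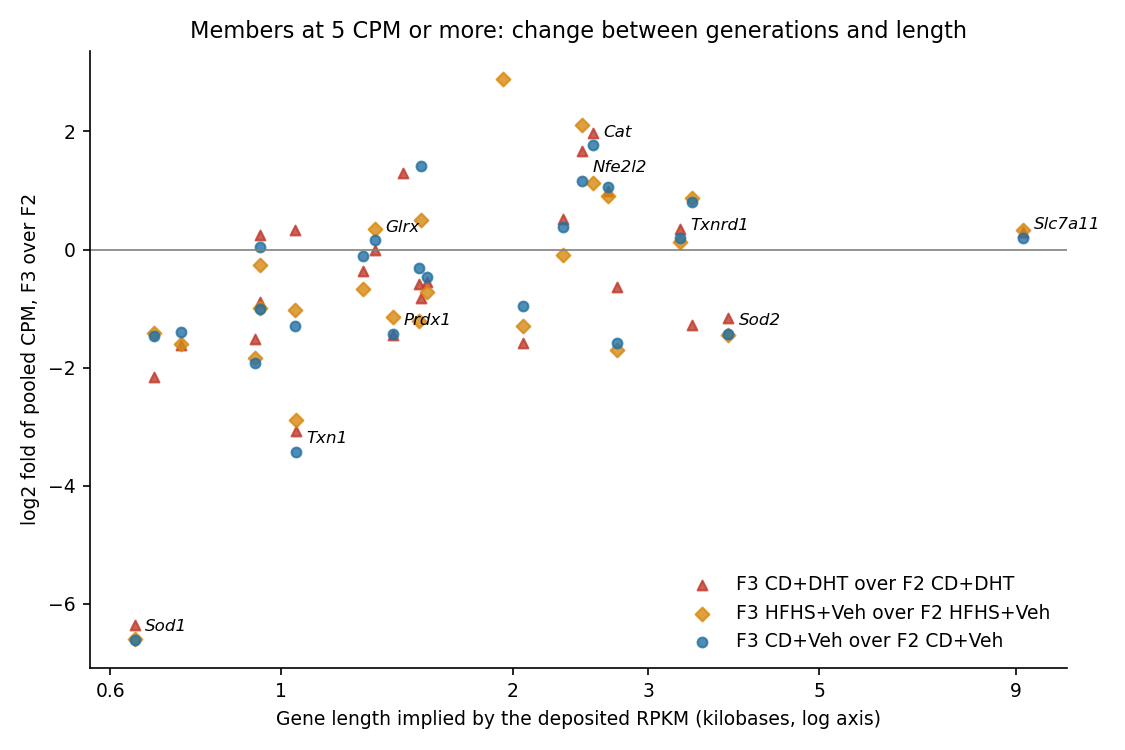
log2 fold of pooled CPM, F3 over F2 of the same lineage, against the gene length implied by the deposited RPKM (kilobases, log axis), for members at 5 CPM or more in CD+DHT (triangles), HFHS+Veh (diamonds) and CD+Veh (circles). Short members such as Sod1 and Txn1 lie lowest, and Slc7a11, the longest, lies near 0.

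Related genes outside the 37 behaved in both ways. Of other glutathione transferases at 5 CPM or more, 2 of 3 were lower past the fold in CD+DHT, 2 of 3 in HFHS+Veh and 3 of 4 in CD+Veh, against 24.4%, 33.1% and 29.8% of all genes. Of these, Mgst3 had 154 CPM in F3 CD+DHT against 901 CPM in F2 CD+DHT. Of Nrf2 partners, 3 of 6, 3 of 6 and 4 of 6 were lower, against the same shares of all genes, and 0, 1 and 0 were higher. Among the lower was Rbx1, a subunit of the ligase that marks Nrf2 for decay. It had 33.2 CPM in F3 CD+DHT against 289.9 CPM in F2 CD+DHT. The higher partner was Cul3, with 123 CPM in F3 HFHS+Veh against 51.1 CPM in F2 HFHS+Veh. Sephs2, which makes selenophosphate for selenoproteins, had 99.0 CPM in F3 CD+DHT against 1139 CPM in F2 CD+DHT. Eefsec of the same list was higher past the fold in each lineage, with 166 CPM in F3 CD+DHT against 32.5 CPM in F2 CD+DHT. Of 7 genes of that list 3, 2 and 1 were higher past the fold in CD+DHT, HFHS+Veh and CD+Veh, and 2, 3 and 2 lower. Over all genes 43.4%, 50.5% and 45.8% were past the fold in either direction. Idh1, a cytosolic source of NADPH, was higher, with 409 CPM in F3 CD+DHT against 122 CPM in F2 CD+DHT, and likewise past the fold in the other lineages.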

How the data were processed

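The authors deposited whole-number counts per gene and RPKM per gene for 202 oocytes. The submitters' processing notes name STAR 2.4.2a, Seurat 2.0 and the mm10 build; the sources used here do not give the counter, annotation or strand setting, so reads of overlapping genes cannot be told apart. Lines with the same symbol were summed (24489 lines, 23995 symbols), and 92 spike-in lines were set aside. CPM were computed from the deposited counts; the deposited RPKM were used to compare genes and to infer lengths. F2 counts were summed per animal and tested with edgeR 4.0.16 (TMM, filterByExpr, quasi-likelihood, Benjamini-Hochberg over 11962 genes), with DESeq2 1.42.0 and limma 3.58.1 as alternatives, in R 4.3.3. P-values measure the spread between animals as inferred from the titles. On simulated F2 counts of 11962 genes (CD+DHT against CD+Veh), 97% of 100 genes changed 4-fold and 100% of 100 changed 16-fold were recovered, with 8 false calls. The changed genes were drawn only from genes above a minimum level, with the spread of genes of like level in place of each gene's own. The recovery thus does not extend to low or more variable members. Other groups were pooled. Positions are from GENCODE vM21 and promoters from RefSeq.

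The members and gene lists were chosen with earlier results of these data known. Values were printed for members with a median of at least 20 CPM, for members past a log2 fold of 1 with at least 10 CPM in either group, and for the smallest p in F2; generation comparisons and the limit of 5089 CPM on cumulus markers were added after the values were seen. The cumulus list had 34 markers and the blood and macrophage list 8, of which 7 had an entry; the blood and macrophage sum had a median of 0.53 CPM over oocytes and a pooled value of 50.5 CPM in F3 CD+DHT, against 0.332 to 11.5 CPM in the other groups.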

Additional observations from a re-analysis of the deposited data

Results flagged for a closer look

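In F2, 3 values of single animals lay far from the other animals of their group, among 39 groups of 4 or 5 animals checked (the 12 abundant members and Mgst1 in 3 lineages), where chance alone marks about 1.95. Sod1 had 172 CPM in CD+DHT animal 9, and the nearest animal had 84.7 CPM. Slc7a11 had 546 CPM in CD+DHT animal 8, and the nearest had 346 CPM. Mgst1 had 88.0 CPM in HFHS+Veh animal 5, and the nearest had 4.84 CPM; the pooled cumulus markers of that animal summed to 1224 CPM, against 117 to 226 CPM in the other HFHS+Veh animals.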

How the results depend on the processing

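No paired analysis was possible because the F2 groups compared share no animal numbers and the other comparisons have no test. In F2 the members called stayed at 0 in CD+DHT and in HFHS+Veh under all alternatives run (DESeq2 size factors, no low count filter, other oocyte filters, equal weight per oocyte with limma, 2 groups only, oocytes of contradictory labels left out, each animal left out), and DESeq2 called 2 and 1 genes of the table in place of 0. With equal weight per oocyte on the log2(CPM + 1) scale and limma, the F2 folds against CD+Veh became -0.49 for Gpx3, -0.0053 for Prdx1 and -0.32 for Prdx5 in CD+DHT and -0.16 for Gpx3 in HFHS+Veh. The HFHS+Veh fold of Gpx3 was -0.10 without HFHS+Veh animal 4 (-0.10 to 0.43 over single animals left out), and that of Prdx1 was 0.042, 0.035 and 0.078 without CD+Veh animal 13, CD+Veh animal 14 or HFHS+Veh animal 5 (-0.17 to 0.078). The cause was not tested. No F2 oocyte passed the limit on cumulus markers, and on the log scale no oocyte did, so that alternative gave no value there.

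Untested counts of members past the fold moved more. In F1 CD+DHT against CD+Veh the 1 became 4 with equal weight, 0 with medians and 4 with deposited RPKM (0 to 1 with 1 oocyte left out). In F1 HFHS+Veh against CD+Veh the 2 became 4 with equal weight, 4 with RPKM and 1 at a minimum of 20 CPM (2 to 3). In F1 HFHS+DHT against HFHS+Veh the 2 became 1 at 20 CPM and 0 without oocytes rich in cumulus markers (0 to 2). In F1 HFHS+DHT against CD+DHT the 2 became 0 with equal weight, 1 with medians, 0 with RPKM and 1 at 20 CPM (1 to 2). In F3 CD+DHT against CD+Veh the range was 2 to 4, and Gpx1 became -0.076 with equal weight. In F3 HFHS+Veh against CD+Veh the 1 became 2 with equal weight, 3 with medians, 2 with TMM and 4 under the stricter oocyte filter (0 to 3). Between F3 and F2 a minimum of 20 CPM left 6 in CD+DHT (10 to 13 with 1 oocyte left out), 8 in HFHS+Veh (12 to 16) and 8 in CD+Veh (11 to 16); Gsr in CD+Veh became -0.66 with medians, and Gss in HFHS+Veh became -0.54 without oocyte 7 of animal 22 (-0.54 to 3.47). The limit that a count of 0 allows, 3 counts over the group, was 0.0309 CPM in F2 CD+DHT and 0.392 CPM in F3 HFHS+Veh.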
